A study of Lotus japonicus with 10 samples.

Results

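Cyanogenic glucoside biosynthesis in Lotus japonicus leaves was followed through 4 gene names, CYP79D3_ntc, CYP79D_LjSGA_030566.2, CYP736A2_ntc and UGT85J_LjSGA_003166.2. These were chosen by name, as entries of the enzyme families of the pathway. No rule on their values was used, but earlier results of these data were known. UGT85J_LjSGA_003166.2 is 1 of 11 UGT85 names on the array, and the files do not say whether it acts in this pathway. Each name has 2 probes, so 8 of the 5716 probes that are not controls and 4 of 3148 names are described. The samples were mature leaves of the MG20 accession, grown under glass, in 3 groups by elicitation: 4 arrays of unelicited leaves (0 h), 3 arrays of leaves after 3 h and 3 arrays after 6 h in 10 mM glutathione (GSH), a tripeptide thiol applied as an elicitor of defence responses. Elicited leaves were detached, submerged and shaken at 200 rpm and 28 °C. The labels do not say whether the unelicited leaves were handled in the same way apart from GSH, and no leaf shaken without GSH is among the samples analysed here, so GSH, detachment and submersion cannot be told apart. Each array holds 1 biological replicate by the study's design text.

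Cyanogenic glucosides are defence compounds that store hydrogen cyanide in a bound, sugar-capped form, and L. japonicus makes linamarin and lotaustralin from valine and isoleucine. CYP79D enzymes are cytochrome P450s that turn the amino acid into an oxime, CYP736A2 is the P450 that turns the oxime into a hydroxynitrile, and a glucosyltransferase of family 85 adds the sugar that makes the product stable. In L. japonicus the genes for these steps lie near each other in the genome. Beta-glucosidases remove the sugar when tissue is damaged, after which cyanide is released, and beta-cyanoalanine synthases and nitrilases of the NIT4 type, known from Arabidopsis, take the cyanide up into amino acids.

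Each RNA, carrying the dye Cy3, was read on its own Agilent array, and every level below is the log2 of the processed signal minus the 75th percentile of its own array, called the log2 signal. Between 2644 and 3805 probes per array were well above background by the scanner software, and the lowest log2 signal well above background lay between −5.79 and −4.01 on the 10 arrays. Values of spots below background are given for completeness and have no order among themselves. Unelicited replicates 1 and 2 were on slide 1 and the other 8 arrays on slide 2, and slide and scan coincide. Pairs of unelicited arrays had a Pearson correlation of 0.973 to 0.978 on the same slide and of 0.827 to 0.853 on different slides. It was taken over the 3310 tested probes, those well above background on all arrays of 1 or more groups. The brightest probe of an array reached a log2 signal of 5.73 to 5.90 on slide 1 and 8.48 to 10.27 on slide 2. The leaf markers set out for a check of the tissue (RBCS, LHCA, LHCB, CAB, PSBA and PSAD) have 0 of 6 names on the array, nodule and root markers have 0 of 7, and of the flower markers LEAFY is present with 6 probes, well above background on 1 of 60 spots, so the leaf label could not be checked.

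The names for the oxime-forming step lost their signal after GSH. CYP79D3_ntc, named for the CYP79D3 enzyme that starts the pathway in L. japonicus leaves, was well above background on all 4 unelicited arrays and on none of the 6 GSH arrays. On probe 141 the unelicited log2 signals were −1.86 and −2.93 in replicates 1 and 2 and 7.46 and 7.70 in replicates 3 and 4, which corresponds to processed signals of 29.8 to 90.7 on slide 1 and 132000 to 180000 on slide 2. After 3 h of GSH the 3 arrays read −6.99, −7.46 and −6.33, and after 6 h −6.88, −6.50 and −6.45, all below background. Unelicited and elicited arrays did not overlap, and within the unelicited group the slide 2 arrays stood far above the slide 1 arrays. How many other probes separate the groups was not counted. At 3 h 74.2% of all tested probes passed a limma adjusted p of 0.05, so separation, here and below, is not read as particular to a name.

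Probe 142 of CYP79D3_ntc was also high in unelicited leaves of slide 2, lower in those of slide 1 and below background after GSH. It read −1.89 and −2.86 in unelicited replicates 1 and 2 and 6.60 in replicate 3, while replicate 4 (5.62) was marked as an outlier spot by the scanner software and left out of the fit. The GSH arrays read −5.39, −7.33 and −6.21 at 3 h and −4.76, −6.09 and −6.37 at 6 h, again all below background.

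The second CYP79D name, CYP79D_LjSGA_030566.2, carries a family name and a locus but no gene number, and the files do not say how it relates to CYP79D3. On probe 518 the unelicited arrays read −2.17, −3.29, 6.67 and 6.70, and on probe 519 they read −1.76, −2.90, 6.71 and 6.70. At 3 h the readings were −6.67, −7.06 and −6.09 on probe 518 and −4.93, −7.22 and −6.22 on probe 519. At 6 h they were −6.49, −4.28 and −6.15 on probe 518 and −6.68, −6.39 and −6.32 on probe 519. All 12 GSH spots of this name were below background, and all 8 unelicited spots were above it. The files do not say whether the 2 names share a target, so they are not counted as independent of each other.

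CYP736A2_ntc, named for the P450 that acts on the oxime, was detected in every group. On probe 145 the unelicited arrays read −0.64, −1.48, 5.61 and 6.00, the 3 h arrays −0.41, −0.85 and −0.92, and the 6 h arrays −2.55, −4.39 and −2.90, of which the −4.39 was below background. On probe 146 the same arrays read −0.68, −1.50, 4.89 and 5.39, then −0.86, −1.69 and −1.63, then −3.77, −5.68 and −3.17, with replicate 2 at 6 h below background. The 3 h arrays thus overlapped the slide 1 unelicited arrays and lay below the slide 2 unelicited arrays, whereas the 6 h arrays lay below every unelicited and every 3 h array. How many other probes separate in this way was not counted. Of all tested probes, limma called 75.9% at 6 h against unelicited leaves and 5.35% between the times.

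UGT85J_LjSGA_003166.2, placed in glycosyltransferase family 85 by its name, went the other way. On probe 373 the unelicited arrays read 1.21, 1.30, 4.15 and 4.13, the 3 h arrays 8.92, 8.79 and 9.16, and the 6 h arrays 8.94, 9.38 and 8.75. On probe 374 they read 1.56, 1.56, 3.12 and 3.04, then 8.17, 8.17 and 8.52, then 8.33, 8.76 and 7.88. All 20 spots were well above background. Both elicited groups lay above every unelicited array, and they overlapped each other. In this name the slide 2 unelicited arrays were again above the slide 1 arrays, but by less than in the P450 names.

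**Figure D1:**
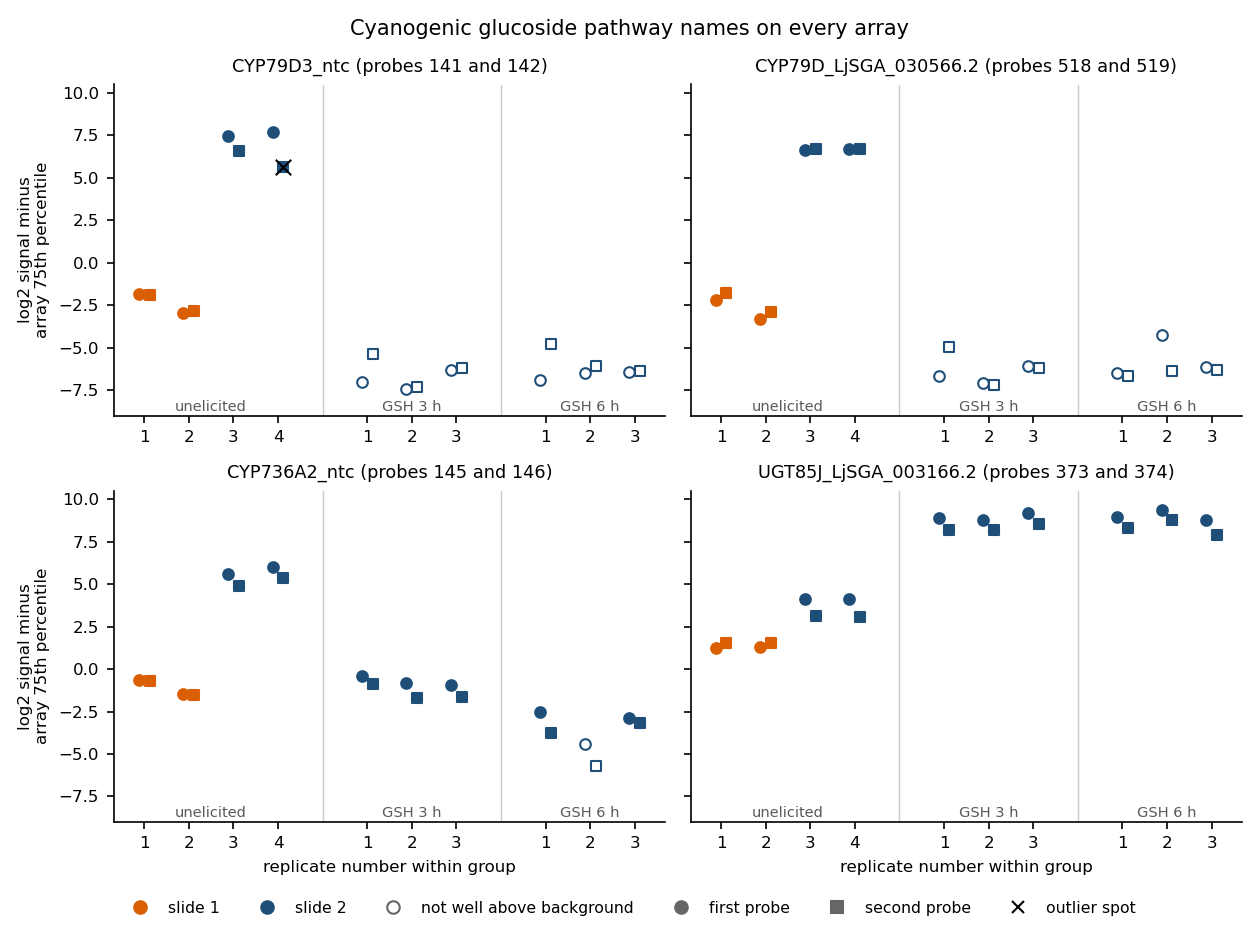
Log2 signal minus the array's 75th percentile (y axis) of both probes of each of the 4 names on all 10 arrays (x axis, replicate number within group), with slide 1 in orange and slide 2 in blue and open symbols for spots not well above background. CYP79D3_ntc probe 141 drops from 7.70 and 7.46 (slide 2) and −1.86 and −2.93 (slide 1) to below background in all GSH arrays, CYP736A2_ntc lies between −0.41 and −1.69 at 3 h and between −2.55 and −5.68 at 6 h, and UGT85J_LjSGA_003166.2 rises to between 7.88 and 9.38.

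The split of the unelicited leaves was among the widest on the array for the 3 P450 names. Slide 2 minus slide 1 came to 9.98 on CYP79D3_ntc probe 141, the highest value of all 3308 tested probes with a value on both slides. Probe 518 of CYP79D_LjSGA_030566.2 followed with 9.41, probe 519 with 9.04 and CYP79D3_ntc probe 142 with 8.97, ranks 2, 4 and 5. CYP736A2_ntc differed by 6.86 and 6.23 on probes 145 and 146, ranks 12 and 16. The differences of UGT85J_LjSGA_003166.2 were 2.88 and 1.52, with 96 and 396 probes at least as high. Over all 3308 probes the median difference was −0.01 and 9 in 10 lay between −2.44 and 2.32. This split was known when the names were chosen, so it is given as a description, with no test. Slide, scan and the leaves themselves cannot be told apart here, and neither can fewer expressing cells and less RNA per cell, in these and all later comparisons of whole leaves.

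**Figure D2:**
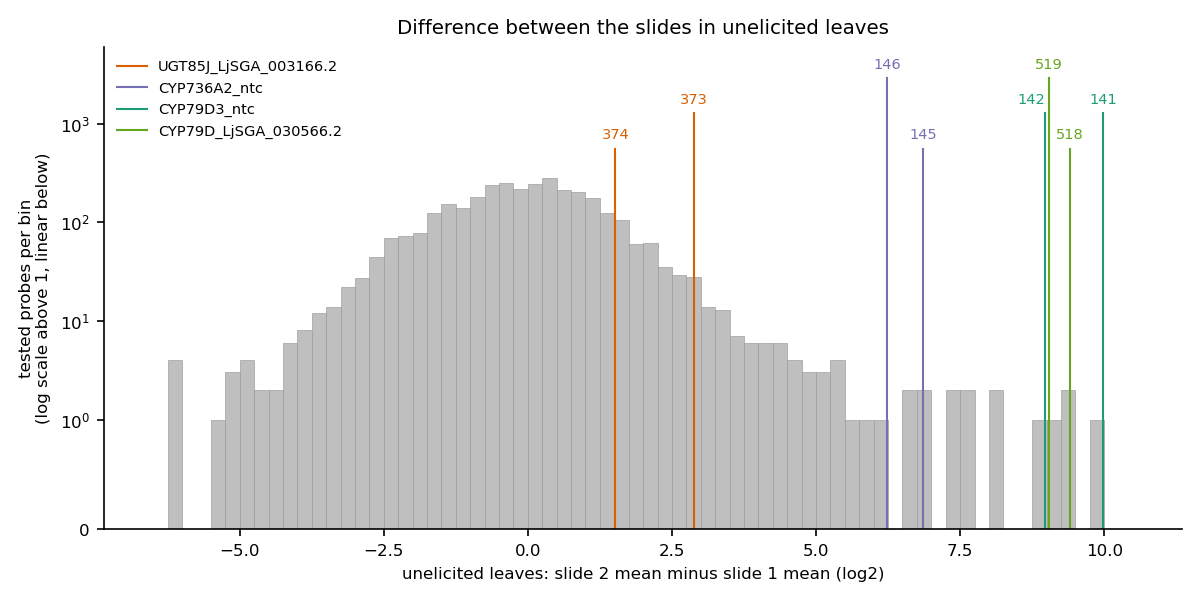
Number of tested probes (y axis, log scale above 1) by the difference between the slide 2 and slide 1 means in unelicited leaves (x axis, log2), with coloured lines at the 8 member probes labelled by probe number. The 4 CYP79D probes lie between 8.97 and 9.98 at the right end, CYP736A2_ntc at 6.23 and 6.86, and UGT85J_LjSGA_003166.2 at 1.52 and 2.88, against a median of −0.01 for all 3308 probes.

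The comparison of 3 h of elicitation with unelicited leaves asks which of the 4 names changed early. The comparison of 6 h with unelicited leaves uses the same 4 unelicited arrays, so the values of both times are set side by side without counting one as support for the other. Over all 10 arrays, 6 of the 8 member probes passed an adjusted p of 0.05 in limma at 3 h (2 higher, 4 lower) and 8 of 8 at 6 h (2 higher, 6 lower). At 3 h 74.2% of all 3309 tested probes passed in either direction (37.5% higher, 36.7% lower), and at 6 h 75.9% (37.5% higher, 38.4% lower). With most probes on the array called, these counts say little about the members, and the sizes follow.

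Both CYP79D names fell. CYP79D3_ntc probe 141 went from 2.59 ± 5.78 (SD, n = 4) in unelicited leaves to −6.93 ± 0.57 (n = 3) at 3 h and −6.61 ± 0.23 (n = 3) at 6 h. Because no GSH array was above background, the fold is a lower bound: the unelicited mean was set against a GSH mean in which each array counted with its lowest signal well above background, or with the probe's reading where that was higher. On that basis probe 141 was at least 150-fold lower at 3 h (limma adjusted p = 0.00483) and at least 118-fold lower at 6 h (adjusted p = 0.0057). The p-values beside such bounds, here and below, belong to the fitted differences from the readings, not to the bounds. Probes with such bounds passed the filter for testing through the unelicited group alone, where they were high. A fall was thus favoured in advance, and these p-values are no support for it. The size rests on which unelicited arrays are used: at least 4780-fold and 3750-fold lower against the slide 2 leaves, and at least 4.73-fold and 3.72-fold lower against the slide 1 leaves.

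The other CYP79D probes fell as well. Probe 142, with 3 unelicited arrays in the fit, was at least 38.3-fold lower at 3 h (adjusted p = 0.0131) and at least 30.1-fold lower at 6 h (adjusted p = 0.019). CYP79D_LjSGA_030566.2 was at least 98.1-fold lower on probe 518 and 114-fold lower on probe 519 at 3 h (adjusted p = 0.00685 and 0.0065), and at least 77.2-fold and 89.3-fold lower at 6 h (adjusted p = 0.0123 and 0.00499). Against the slide 1 leaves alone the bounds of this name shrank to at least 3.76-fold and 4.96-fold at 3 h and 2.96-fold and 3.9-fold at 6 h. Probe 142 lost its call with normexp background correction at both times (adjusted p = 0.119 and 0.0701) and probe 518 at 3 h (adjusted p = 0.0553).

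CYP736A2_ntc was lower than in unelicited leaves at 6 h, and at 3 h the call depended on the slide. Its unelicited mean was 2.37 ± 3.98 (SD, n = 4) on probe 145, against −0.73 ± 0.28 (n = 3) at 3 h and −3.28 ± 0.97 (n = 3) at 6 h. Over all arrays the 3 h difference was −3.10 (SE 1.71, adjusted p = 0.123) on probe 145 and −3.42 (SE 1.59, adjusted p = 0.0746) on probe 146, neither past the threshold. At 6 h the name fell by 5.65 (SE 1.71, adjusted p = 0.0117) and by 6.23 (SE 1.59, adjusted p = 0.00478).

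Within slide 2, where 2 unelicited and 6 GSH arrays share a slide, CYP736A2_ntc fell at both times. The 3 h difference was −6.53 on each probe (SE 0.51 and 0.66, adjusted p = 4.58e-06 and 2.22e-05), and the 6 h difference −9.09 and −9.34. The 2 unelicited arrays of slide 1 were on a slide with no GSH array, so they give no within-slide value. Set against the GSH arrays across slides, they gave CYP736A2_ntc 3 h differences of 0.33 (adjusted p = 0.585) and −0.31 (adjusted p = 0.698) and 6 h differences of −2.22 (adjusted p = 0.005) and −3.12 (adjusted p = 0.00313).

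Between the elicitation times, which share the slide but are fitted with a spread that includes the unelicited arrays, CYP736A2_ntc differed by −2.55 on probe 145 (SE 1.83, adjusted p = 0.473) and by −2.81 on probe 146 (SE 1.70, adjusted p = 0.385) at 6 h, which did not pass. With the slide as a block the same differences had SEs of 0.45 and 0.58 and passed (adjusted p = 0.00579 and 0.0107), and they passed on slide 2 alone too (adjusted p = 0.00949 and 0.0172). Slide 1 held unelicited arrays only, so these fits give the same differences and do not count as separate results. On both probes the 6 h reading of replicate 2 was below background. The sizes between the times, and those at 6 h against unelicited leaves, thus rest in part on an unmeasured reading. With normexp the differences between the times were −1.62 on probe 145 and −1.56 on probe 146 (limma adjusted p = 0.713 on each). Of the 4 member probes that could be compared between the times, 0 were called by limma over all arrays, with none at an unadjusted p under 0.05, and 2 with the slide as a block, beside 5.35% and 19.9% of all tested probes. The CYP79D probes were below background at both times and get no fold.

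UGT85J_LjSGA_003166.2 rose at both times. Probe 373 went from 2.70 ± 1.66 (SD, n = 4) to 8.95 ± 0.19 (n = 3) at 3 h, a 76.6-fold rise (adjusted p = 2.66e-05), and to 9.02 ± 0.32 (n = 3) at 6 h, an 80.4-fold rise (adjusted p = 2.32e-05). Probe 374 rose 62.7-fold and 64.0-fold (adjusted p = 1.22e-06 and 1.05e-06). On slide 2 alone the rises were smaller, 28.2-fold and 37.0-fold at 3 h and 29.7-fold and 37.8-fold at 6 h. From 3 h to 6 h the log2 difference was 0.07 on probe 373 (95% CI −1.68 to 1.82) and 0.04 on probe 374 (95% CI −1.04 to 1.12), and with the slide as a block the intervals were −0.43 to 0.57 and −0.53 to 0.60.

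**Figure D3:**
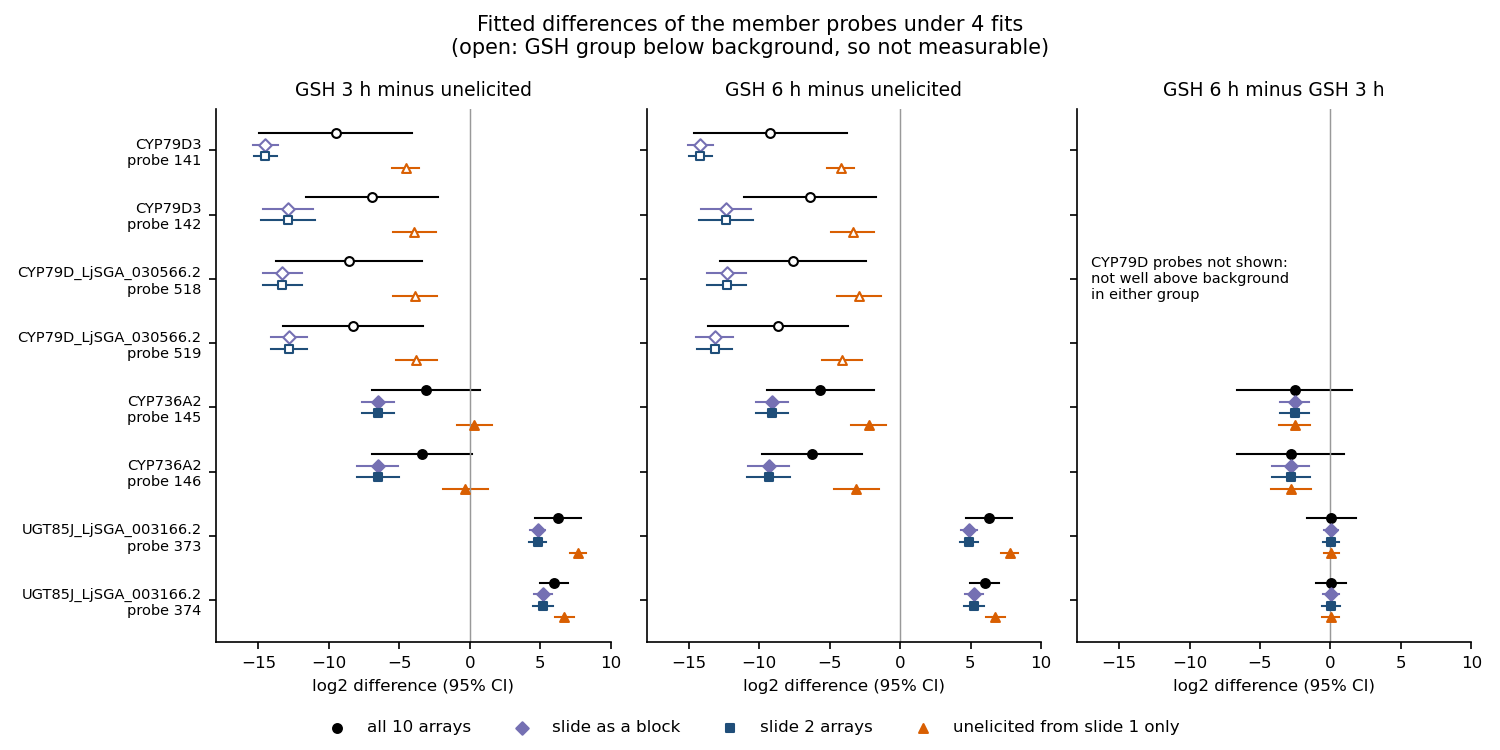
Fitted log2 differences with 95% confidence intervals (x axis) for each member probe (y axis) in the 3 comparisons, from all 10 arrays, with the slide as a block, from the 8 slide 2 arrays, and with the slide 2 unelicited arrays left out. Open symbols mark the CYP79D probes, whose GSH readings were below background, so that their plotted sizes are not measurable and the folds stand in the text as lower bounds. All of them lie below 0, CYP736A2_ntc at 3 h moves from −6.53 to 0.33 on probe 145 with the unelicited arrays used, and UGT85J_LjSGA_003166.2 stays above 0.

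The directions of the 3 P450 names and of UGT85J_LjSGA_003166.2 against unelicited leaves held under the scalings tried. Centring on the probes well above background on every array moved the median difference of all tested probes from −0.05 to −1.11 at 3 h and from −0.07 to −1.13 at 6 h, and the split of calls from 1240 higher and 1216 lower to 801 and 1660 at 3 h, and from 1240 and 1271 to 835 and 1680 at 6 h. Under it CYP736A2_ntc passed at 3 h too, at −4.16 (adjusted p = 0.0443) and −4.48 (adjusted p = 0.0246), and all 8 member probes were called, beside 74.4% of all probes.

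The 2 probes of a name gave fold changes that differed by a median of 0.39 at 3 h over the 1303 names with 2 tested probes. The difference was 0.29 for UGT85J_LjSGA_003166.2, 0.32 for CYP736A2_ntc and 0.27 for CYP79D_LjSGA_030566.2. It was 2.59 for CYP79D3_ntc, and 2.76% of names had probes at least that far apart. The CYP79D values are fitted differences against readings below background, and for CYP79D3_ntc 1 of the bright unelicited spots of probe 142 is missing from the fit.

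Relatives of the members in the same families were sought by name prefix. Of 9 CYP79 names, the 2 members were the ones with a tested probe. CYP79D4_ntc, named for the enzyme that makes the oximes in L. japonicus roots, was listed on probe 97 at −5.79 and −7.14 in unelicited replicates 1 and 2 and at 0.61 and 1.01 in replicates 3 and 4, and was below background on all 6 GSH arrays. Its probe 98 was below background on all 10 arrays and read −7.87, −7.04, −6.91 and −7.16 in unelicited leaves, with no split by slide. CYP79DLT_1_ntc read −0.82 and −0.38 on probe 89 in unelicited replicates 3 and 4, with replicates 1 and 2 and all GSH arrays below background. Its probe 90 read −1.06 and −0.48 in those replicates and was above background in replicate 1 too, at −4.51. The higher signal in unelicited leaves of slide 2 was thus seen on both probes of CYP79DLT_1_ntc and on 1 of 2 probes of CYP79D4_ntc. The other 5 CYP79 names were well above background on 2 spots in all.

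Of 4 CYP736 names, 2 had tested probes. Among the untested names, CYP736LT_2P_ntc was below background on all arrays. CYP736LT_3_ntc was well above background on 4 of 6 spots at 3 h, and on no spot in unelicited leaves or at 6 h. Where CYP736A2_ntc fell at 6 h, CYP736LT_1_ntc rose by 2.11 at 3 h (SE 0.33, adjusted p = 0.000216) and by 1.61 at 6 h (SE 0.33, adjusted p = 0.00131) on its brighter probe 153, although with the other centring its 6 h difference was 0.55 and did not pass (adjusted p = 0.106). Its unelicited levels on that probe were −0.21, 0.15, 0.93 and 0.93, so the slide difference was 0.96 beside 6.86 for CYP736A2_ntc.

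Of 11 UGT85 names, all were tested on 1 probe per target, and 2 were higher and 9 lower at 3 h and again at 6 h. Over all 1970 tested targets 37.4% were higher and 36.3% lower at 3 h, and 36.8% and 37.9% at 6 h. At 3 h the medians were −3.74 for the UGT85 names and 0.00 for all targets, and 9 UGT85 names were lower under each of the scalings tried. The falls ran from −2.23 in UGT85J_chr2.LjT47E17.30.nc to −5.09 in UGT85J_LjSGA_007505.1.1 at 3 h. These ends are of names measured after GSH, the latter on 2 of 3 arrays. UGT85J_LjSGA_024479.1 was above background on 1 of 3 arrays at 3 h and on none at 6 h, when it was at least 14.2-fold lower on probe 47 (adjusted p = 4.89e-05). ugt85J1_ntc was below background on all 6 GSH arrays on probe 330, and was at least 3.23-fold lower at 3 h (adjusted p = 0.000617) and at least 2.54-fold lower at 6 h (adjusted p = 0.00112). The remaining names that fell changed by −3.88 to −3.09 at 3 h and by −5.01 to −2.42 at 6 h, and were UGT85J_LjSGA_013948.3, UGT85J_LjSGA_044094.1, UGT85J_LjT45I18.30.nd, UGT85J_LjSGA_091755.2 and UGT85J_chr3.CM0241.610.nc. In unelicited leaves slide 2 minus slide 1 ran from −0.66 to 2.88 over the UGT85 names, highest in the member UGT85J_LjSGA_003166.2.

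Besides the member UGT85J_LjSGA_003166.2, UGT85J_LjSGA_028537.1 rose, by 2.17 at 3 h (SE 0.37, adjusted p = 0.00038) and 2.26 at 6 h (SE 0.37, adjusted p = 0.000264) on probe 348. That rise was 0.39 at 3 h under quantile normalization (adjusted p = 0.356), so its call depends on the scaling. The array's UGT85 names all carry the letter J, and the files do not say which of them, if any, acts on the hydroxynitriles of this pathway.

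**Figure D4:**
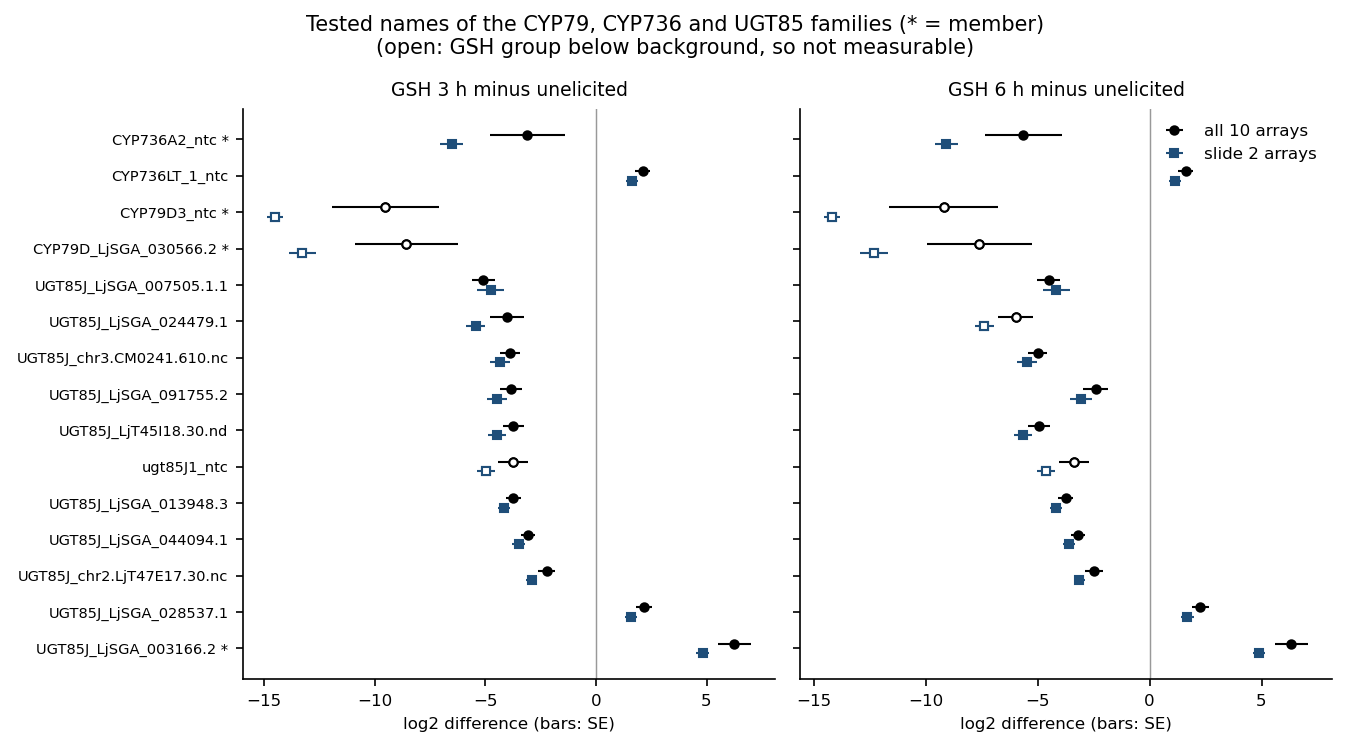
Log2 differences from unelicited leaves (x axis, bars are SE) at 3 h (left) and 6 h (right) for the tested CYP79, CYP736 and UGT85 names (y axis, members marked with an asterisk), from all 10 arrays (black) and from slide 2 alone (blue). Open symbols mark names below background on all arrays of the GSH group, whose plotted difference is not measurable. UGT85J_LjSGA_003166.2 lies at 6.26 and 6.33 on the right, the UGT85 names with filled black symbols that fell lie between −2.23 and −5.09, and CYP736LT_1_ntc lies at 2.11 and 1.61, the latter at 0.55 and not called with the other centring.

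The patterns over the 10 arrays most like each member were taken by Pearson's r, with signals below −4.01, the highest of the arrays' lowest measured levels, set to that floor. The arrays share treatment and slide within groups, so r is a description. For CYP79D3_ntc they were FHYD21_LjSGA_042348.1 (r = 0.998), LjMYB-GARP-G2-like3 (0.997) and FOLGT03_chr3.LjT35O23.10.nd (0.996). For CYP79D_LjSGA_030566.2 they were LjMYB-GARP-G2-like3 (0.997), CYP71B_LjT37G19.120.nc (0.997) and FHYD21_LjSGA_042348.1 (0.996). The CYP79D names were above the floor on the 4 unelicited arrays only, so these values rest on 4 arrays. Their ranges differed: 11.71 for CYP79D3_ntc probe 141, 10.34 for FHYD21_LjSGA_042348.1 and 1.88 for LjMYB-GARP-G2-like3.

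CYP736A2_ntc was most like FHYD08_LjT37G19.90.nc (r = 0.999), which changed by −3.28 at 3 h and −5.73 at 6 h, beside −3.10 and −5.65 for CYP736A2_ntc probe 145. FOLGT08_chr4.CM0227.650.nc (0.984) and CYP71A_chr3.CM0241.540.nd (0.978) followed. UGT85J_LjSGA_003166.2 was most like 4Meth1_LjT24P23.70.nc (0.997), LjWRKY16 (0.997) and LjHSF8 (0.996), and these rose by 5.06, 2.75 and 4.95 at 3 h. Names most like a member were picked on these same arrays, so the direction of their changes follows from the selection and is no separate result. 

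Names from the enzyme families that act after synthesis were taken by pattern as well. The files do not say which of the beta-glucosidase names, if any, act on cyanogenic glucosides. Of 38 tested beta-glucosidase targets, 11 rose and 23 fell at 3 h and 10 rose and 24 fell at 6 h, beside 37.4% higher and 36.3% lower of all 1970 targets at 3 h and 36.8% and 37.9% at 6 h. With the other centring 10 rose and 26 fell at 3 h, beside 23.7% higher and 49.8% lower of all targets. The medians of the 38 were −2.81 and −2.99 beside 0.00 and −0.04, and they include names below background after GSH. Without the filter on dim probes, the medians over all 64 beta-glucosidase names were −0.62 and −0.47 beside 0.16 and 0.42 for all targets, and 11 rose and 26 fell at 3 h, beside 24.4% higher and 25% lower of 3081 targets. LjBGLU2_ntc and LjBGLU4_ntc had the highest unelicited means, and whether they are the enzymes that cleave cyanogenic glucosides in L. japonicus leaves is not given in the files. LjBGLU2_ntc read 2.90, 2.91, 7.26 and 7.77 in the unelicited arrays on probe 82, and −3.77, −3.34 and −2.25 at 3 h. At 6 h it read −2.81, −2.79 and −4.23, the last below background, and it fell by 8.49 (SE 1.20, adjusted p = 9.31e-05).

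LjBGLU4_ntc read 2.85, 2.64, 6.74 and 6.97 on probe 9 in unelicited leaves and was below background on all 6 GSH arrays. It was at least 695-fold lower at 3 h (adjusted p = 4.08e-06) and at least 546-fold lower at 6 h (adjusted p = 4.61e-06). Like the CYP79D names, both glucosidases were higher in the slide 2 than in the slide 1 unelicited leaves, but here the slide 1 leaves alone gave bounds of at least 167-fold and 132-fold for LjBGLU4_ntc. BGLU92_chr4.CM0333.330.nc, next by unelicited mean, fell by 4.60 and 5.45 (adjusted p = 1.19e-05 and 3.29e-06). BGLU7_chr4.CM0126.1280.nc was at least 101-fold and 79.7-fold lower on probe 2 (adjusted p = 2.49e-07 and 2.98e-07), and its other probe was below background on all arrays.

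The largest rises among the beta-glucosidase names were in BGLUG2_LjSGA_034905.1, by 7.34 at 3 h (SE 1.27, adjusted p = 0.000425) and 7.60 at 6 h, and in BGLUG2_LjSGA_069328.1.1, by 7.17 (SE 1.04, adjusted p = 0.000116) and 7.47. Their unelicited slide 1 spots were below background, so the fitted rises over all arrays are not measured sizes. Both names passed the filter for testing through the GSH groups alone, where they were high. A rise was thus favoured in advance, and these p-values are no support for it. On slide 2 alone the rises were 4.88 and 5.37 at 3 h.

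Cyanide detoxification gave no settled direction. The planned list met NIT05_LjNIT4A and NIT06_LjNit4B, and no hydroxynitrile lyase name was on the array. NIT05_LjNIT4A probe 4 read 3.46, 3.52, 4.88 and 4.50 in unelicited leaves, 5.95, 5.53 and 5.64 at 3 h and 5.85, 5.81 and 5.68 at 6 h. Its 3 h difference was 1.62 (SE 0.37, adjusted p = 0.00261), but it was 0.56 with the other centring (adjusted p = 0.149) and −0.81 under quantile normalization (adjusted p = 0.0249). NIT06_LjNit4B probe 26, with the outlier spot of unelicited replicate 1 left out, gave 1.40 (SE 0.39, adjusted p = 0.00944), 0.37 (adjusted p = 0.361) and −0.78 (adjusted p = 0.061) under the same 3 scalings.

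Among all 11 tested nitrilase names, 7 were higher and 1 lower at 3 h, beside 37.4% and 36.3% of all targets. With the other centring 2 were higher and 2 lower, beside 23.7% and 49.8%. Of 6 tested names with the prefix cyala, read here as beta-cyanoalanine synthase, 1 was higher and 2 were lower at 3 h and 2 higher and 1 lower at 6 h, where 36.8% and 37.9% of all targets were. With the other centring 1 was higher and 4 were lower at 3 h. These counts over 6 names are too small to set apart from those shares.

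**Figure D5:**
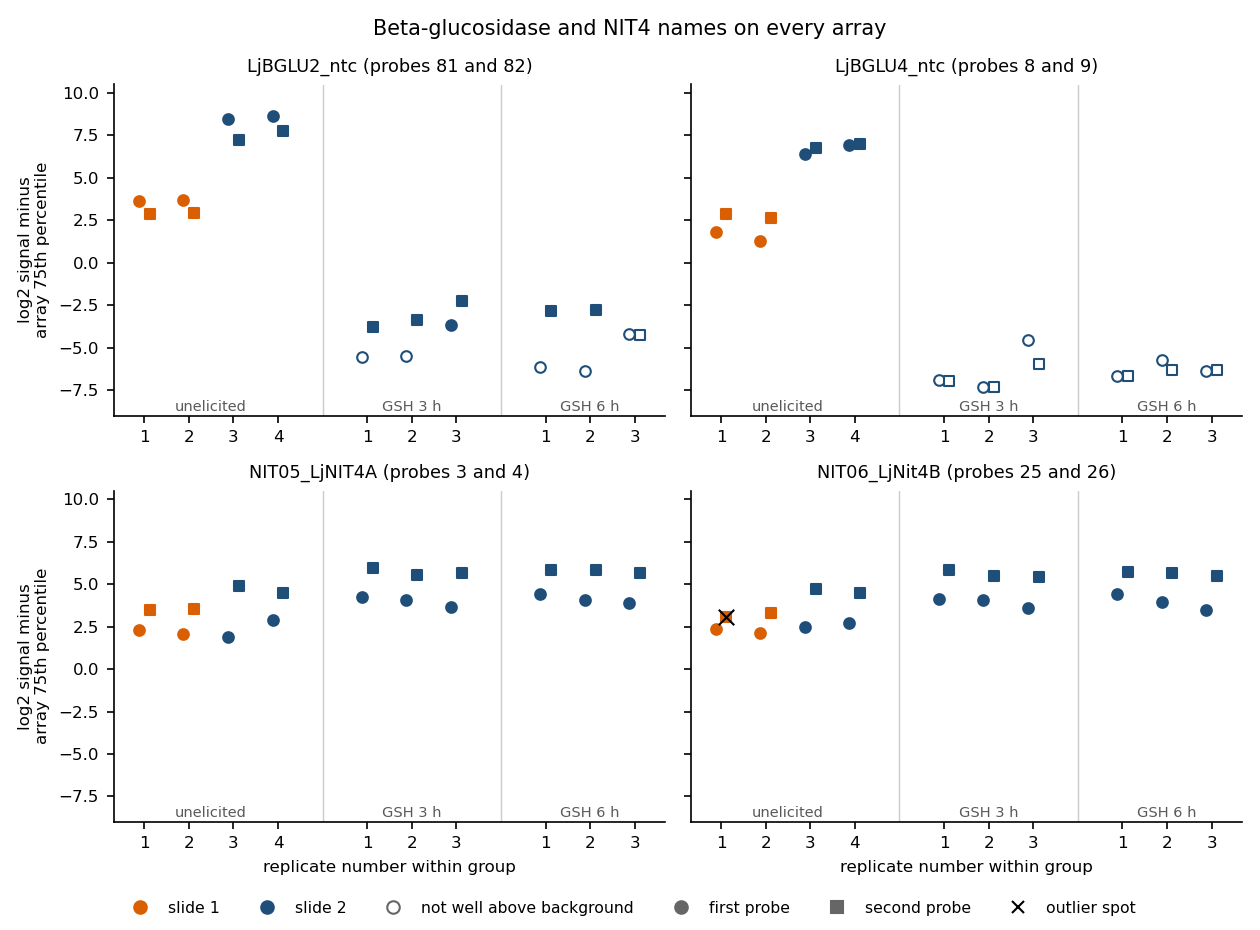
Log2 signal minus the array's 75th percentile (y axis) of both probes of LjBGLU2_ntc, LjBGLU4_ntc, NIT05_LjNIT4A and NIT06_LjNit4B on all 10 arrays (x axis, replicate number within group), coloured by slide, with open symbols for spots not well above background. LjBGLU4_ntc probe 9 goes from between 2.64 and 6.97 to below background, while NIT05_LjNIT4A probe 4 lies between 3.46 and 4.88 in unelicited leaves and between 5.53 and 5.95 after GSH.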

How the data were processed

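Cy3-labelled total RNA from 10 leaf samples was measured on 1 one-colour Agilent array each. The deposited values are spot intensities from Agilent Feature Extraction 10.7.3.1, background-subtracted and detrended per the file headers, and without normalization between arrays. The deposited value table holds the same intensity values. Groups came from the sample titles.

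Outlier spots, 4 to 64 on an array, were dropped. No saturated spot was found. Scaling subtracted the 75th percentile of each array (a signal of 227.25 to 1022.5) from log2 of the deposited signal. A probe was tested where all arrays of 1 or more groups held it well above background (3310, of which 3309 gave an estimate). The model was limma 3.58.1 (R 4.3.3), with a mean for each group over the 10 arrays and moderated variances (lmFit, then eBayes, whose prior carried 3.05 degrees of freedom). Tests had both sides, and p-values were adjusted by Benjamini-Hochberg and called at 0.05. The number of arrays limits the precision. Simulated data with known changes served to test the model code. Figures used matplotlib 3.10.9.

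Members, lists and tests were chosen with earlier results of these data known. The rule for naming took every member probe, every tested CYP79, CYP736 and UGT85 target, of the beta-glucosidase and cyanide lists the 3 highest unelicited means and the 2 largest called rises and falls per comparison, and the 3 names most like each member. The nitrilase and cyala prefixes were added once the array's names were known. Names ending in the same locus were 1 target, on its probe with the highest mean. The reference table of 40429 genes matched 0 names, so no positions are given. Alternatives covered background correction, scaling, the filter, the variance model, slide and replicate blocks, and each array left out. Normexp (offset 50) took median spot signals.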

Additional observations from a re-analysis of the deposited data

Results flagged for a closer look

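Of 123 probes of the members and related lists examined, 3 had 1 unelicited array far from the other 3, and chance flags about 1 group in 20. UGT85J_LjSGA_028537.1 probe 349 read −5.66 in unelicited replicate 1, where it was below background, against 1.93 to 3.09 in the other replicates, and its second probe showed no such gap (2.19 against 2.51 to 3.69). BGLU63_LjSGA_016388.2 probe 48 read −7.54 in the same array, below background, against −3.06 to −2.45. NIT04_chr5.CM0260.660.nd probe 10 read 1.41 in unelicited replicate 4 against 0.69 to 0.79. The causes of these 3 values were not tested. None of the 8 member probes was among them. For the P450 names and UGT85J_LjSGA_003166.2 this was fixed in advance, since the check cannot flag a split of 2 arrays against 2.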

How the results depend on the processing

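Of 466 recomputed differences of member probes, 430 kept direction and side of the threshold, 22 passed where the value over all arrays did not, 6 lost the call and 8 changed sign. These counts hold the slide as a block and slide 2 alone as separate fits, although both give the same differences. CYP79D3_ntc probe 142 lost its call with normexp (−3.26 at 3 h, −3.76 at 6 h) and quantile normalization (−6.35 at 6 h), and CYP79D_LjSGA_030566.2 probe 518 with normexp at 3 h (−4.57). The fitted sizes of CYP79D probes are against readings below background. Without 1 array at a time, probe 142 ranged from −8.10 to −3.37 at 6 h and lost the call without 6 h replicate 2 or 3 (adjusted p = 0.0515 and 0.0576). CYP736A2_ntc passed at 3 h on probes 145 and 146 with the other centring (−4.16, −4.48), the slide as a block or slide 2 alone (−6.53 on each), slide 2 with that centring (−7.48 on each) and without unelicited replicate 1 or 2 (range −4.38 to −1.89 and −4.59 to −2.30 over all arrays left out). Without the slide 2 unelicited arrays probe 145 reversed to 0.33, with adjusted p = 0.585. Between the times CYP736A2_ntc passed at −2.55 and −2.81 with the slide as a block, slide 2 alone, the 2 groups alone and no slide 2 unelicited arrays, and at −2.56 and −2.81 on slide 2 with the other centring. UGT85J_LjSGA_003166.2 changed sign between the times, never past the threshold, under quantile normalization (−0.22 and −0.17) and without single arrays (−0.11 to 0.21 and −0.18 to 0.26). The causes of these shifts were not tested.

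The number of probes called at 3 h (2456) was 1603 with normexp and 1499 where only probes above background on every array were tested, which takes fewer probes, and at 6 h 1523 in place of 2511. Between the times 177 were called, against 19 with normexp, 112 with quantile normalization, 109 without the filter, 660 with the slide as a block, 505 on slide 2, 520 there with the other centring, 404 with the 2 groups alone, 599 without the slide 2 unelicited arrays and 26 to 194 without single arrays (26 without 6 h replicate 2, 106 without 6 h replicate 1, and 29, 88 and 54 without 3 h replicates 1, 2 and 3). Replicate numbers showed no clear pairing of the samples. Deviations from the group means correlated at −0.044 to 0.063 between same-numbered arrays and at −0.129 to 0.152 between others. Of 9 arrays, 3 correlated best with their own number. The deviations of unelicited arrays hold the split by slide, so this check cannot exclude pairing. The replicate block called 80 probes between the times and changed no call of a member probe. Settings added after the data were seen were slide 2 with the other centring and leaving out the slide 2 unelicited arrays.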
